A study of Homo sapiens with 22 samples.

Results

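The 5 lysyl oxidase genes LOX, LOXL1, LOXL2, LOXL3 and LOXL4 and the collagen lysyl hydroxylase genes PLOD1 and PLOD2 were followed through the reprogramming of human fibroblasts. They were found by gene symbol, and all 7 were present among the 33694 genes of the files. The data are single-cell RNA counts of BJ cells, an established line of foreskin fibroblasts, that were turned towards pluripotency inside microfluidic chips. Each of 8 days (D0, D3, D5, D7, D9, D11, D13 and D15) had 2 pools, A and B, and each pool joined the cells of 4 chips, so n = 2 per day. D0 cells were the untransfected control, and the other cells were transfected daily up to D8, 8 times in all, with mRNAs coding for POU5F1, SOX2, KLF4, MYC, LIN28 and NANOG, so that cells taken on D3, D5 and D7 had received only part of them. BJ cells were cultured in medium with serum, and a reprogramming medium was used from the start of transfection. The medium was changed again from D9 on, and reprogramming ran in an incubator at 5% oxygen. The oxygen given to D0 cells is not stated separately. D0 thus also differs from the other days in medium. Later days differ from earlier ones in medium and in the time since the last transfection. These cannot be told apart from the day.

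Lysyl hydroxylases act inside the endoplasmic reticulum, where they add hydroxyl groups to lysines of procollagen before it is secreted. PLOD1 modifies mainly the triple helix, PLOD2 the telopeptides at the chain ends, and PLOD3, which was measured here for comparison and is not among the 7 genes, also adds sugars to hydroxylysine. Lysyl oxidases are secreted copper enzymes that turn lysines and hydroxylysines of collagen and elastin into reactive aldehydes, from which the cross-links of the matrix form. LOX is the founding member, LOXL1 is known for its role in elastic fibres, and LOXL2, LOXL3 and LOXL4 carry scavenger receptor domains. Fibroblasts are a main source of these enzymes, and LOX, LOXL2 and PLOD2 are textbook targets of the hypoxia response.

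The counts are unique molecular identifiers (UMIs), and levels are given in CPM, the UMIs of a gene scaled to the same UMI total in every pool or cell class. Cells had to show 1000 genes and to stay within 10% mitochondrial UMIs, which kept 41975 of 44197 barcodes, with 571 to 6142 cells and 33181614 to 180056814 UMIs per pool. A gene was tested if at least 5% of the kept cells held a UMI of it, which left 12794 genes, and all 7 enzyme genes passed, from LOXL3 in 25.1% of cells to PLOD1 in 80.4%. Cells were also sorted into classes by their own counts. A cell was COL1A1-high with at least 200 CPM of COL1A1 and under 100 CPM of POU5F1, and POU5F1-high the other way round. The levels of COL1A1 and POU5F1 are therefore descriptions. The fibroblast markers (9 genes, the collagen genes COL1A2 and COL3A1 among them) summed to 2750 to 6772 CPM in COL1A1-high and 438 to 882 CPM in POU5F1-high cells of D9 to D15. They summed to 10490 to 10840 CPM on D0, and 8 of the 9 were called higher in COL1A1-high than in POU5F1-high cells. The 10 pluripotency markers summed to 219 to 781 and 2793 to 4387 CPM in the classes, and all 10 were called lower in COL1A1-high cells. Markers of keratinocytes stayed at or below 2.65 CPM in both classes, whereas mesendoderm markers reached 248 CPM in a pool of COL1A1-high cells and 176 CPM in POU5F1-high cells. The 3 immune markers summed to 9.45 to 26.1 CPM in COL1A1-high and 1.22 to 2.85 CPM in POU5F1-high cells, and the 1 of them that was tested was higher in COL1A1-high cells. In the fibroblasts of D0 the same 3 markers summed to 88.5 to 89.7 CPM. The 4 endothelial markers summed to 2.73 to 37.6 and 6.66 to 29.0 CPM, and the 1 tested was lower in COL1A1-high cells. The part of these in the differences between classes was not tested.

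Pool A of D11 and pool B of D13 stood apart from the others. In these pools 70.6% and 46.2% of cells held at least 200 CPM of both COL1A1 and POU5F1, against 1.40% to 7.59% in the other pools of D9 to D15. Pool A of D11 kept only 8 POU5F1-high cells and was left out of the comparison of classes, which used the other 7 pools with at least 40 COL1A1-high and 274 POU5F1-high cells each. The main counts that rest on these pools are given with and without them. Libraries shared at most 1.63% of the smaller library's barcodes.

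All 7 genes are protein coding on GRCh38. LOX (ENSG00000113083) lies at chr5:122063195-122078413 on the minus strand, LOXL1 (ENSG00000129038) at chr15:73925989-73952137 on the plus strand and LOXL3 (ENSG00000115318) at chr2:74532258-74555690 on the minus strand. LOXL4 (ENSG00000138131) lies at chr10:98247690-98268194 on the minus strand, PLOD1 (ENSG00000083444) at chr1:11934205-11975538 on the plus strand and PLOD2 (ENSG00000152952) at chr3:146035139-146163725 on the minus strand. These spans are those of GENCODE, which begin upstream of the RefSeq starts used next for LOX, PLOD2 and LOXL1, so the stretches printed lie within the spans or across their edge. The 250 bases before the most upstream RefSeq start (GRCh38.p14) are printed for LOX and PLOD2, which rose in the COL1A1-high cells of later days, and for LOXL1, which was not called there. No sequence is shown for LOXL2, which rose there too. Capitals mark ACGTG and GCGTG, the core of the hypoxia response element, on either strand.
LOX, chr5:122078260-122078509, minus strand: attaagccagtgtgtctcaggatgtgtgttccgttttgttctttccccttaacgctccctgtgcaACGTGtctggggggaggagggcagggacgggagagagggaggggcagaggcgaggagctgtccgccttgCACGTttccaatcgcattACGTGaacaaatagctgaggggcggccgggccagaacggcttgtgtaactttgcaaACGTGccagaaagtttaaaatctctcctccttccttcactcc
PLOD2, chr3:146161185-146161434, minus strand: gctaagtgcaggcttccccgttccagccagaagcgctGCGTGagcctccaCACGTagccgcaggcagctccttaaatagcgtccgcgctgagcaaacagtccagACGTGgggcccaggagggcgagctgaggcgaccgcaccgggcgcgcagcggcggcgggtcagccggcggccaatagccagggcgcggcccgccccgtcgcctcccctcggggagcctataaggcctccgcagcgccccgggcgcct
LOXL1, chr15:73926212-73926461, plus strand: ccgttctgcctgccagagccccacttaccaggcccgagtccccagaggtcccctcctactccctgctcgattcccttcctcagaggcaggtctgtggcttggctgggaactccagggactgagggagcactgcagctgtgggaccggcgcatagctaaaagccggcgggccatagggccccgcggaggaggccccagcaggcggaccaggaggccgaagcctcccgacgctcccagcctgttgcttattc
The LOX stretch held 4 such words, the PLOD2 stretch 3 and the LOXL1 stretch 0. PLOD1 held 2, and LOXL3, LOXL4 and PLOD3 held 0. Of 35116 RefSeq promoters of the same length, 43.2% held at least 1, so their presence is common. These are letter matches and not sites of binding.

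Over all cells, the genes took 2 courses. LOX, LOXL1, LOXL3, LOXL4 and PLOD1 had their lowest mean level on D15, whereas LOXL2 and PLOD2 were highest on D11 and D13 and lay on D15 at 23.7 ± 2.40 and 22.7 ± 1.42 CPM, against 30.9 ± 1.29 and 23.9 ± 0.198 CPM in the untreated fibroblasts (SD, n = 2). LOX stood at 73.5 and 79.3 CPM in the pools A and B of D0, 43.1 and 33.1 on D3, 81.9 and 51.1 on D5, 40.1 and 68.3 on D7, 44.1 and 35.2 CPM on D9, 50.2 and 54.0 CPM on D11, 53.9 and 23.3 CPM on D13, and 15.9 and 17.5 CPM on D15. Both D15 pools of LOX lay below every other pool with the main cell filter. The order of the days above them was not resolved, since neighbouring days overlapped except at D11 over D9 and D3 over D15. With the stricter cell filter given below, LOX stood at 42.8 and 37.2 CPM on D15, against 42.5 and 35.65 CPM on D3. On D9 it stood at 43.5 and 34.7 CPM with that filter. The D15 pools of LOX then no longer lay below all others. LOXL1 went from 191 and 212 CPM on D0 to 109 and 51.7 on D3, 162 and 98.8 on D5, 93.4 and 147 on D7, 81.3 and 70.3 CPM on D9, 98.7 and 82.8 CPM on D11, 75.5 and 24.6 CPM on D13 and 12.8 and 16.2 CPM on D15. Here the D0 pools lay above all others and the D15 pools below.

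LOXL2 (ENSG00000134013, chr8:23296897-23425328, minus strand) stood at 30.0 and 31.8 CPM on D0, 21.2 and 16.04 on D3, 42.2 and 22.8 on D5, 26.3 and 43.2 on D7, 44.4 and 43.0 CPM on D9, 63.7 and 64.0 CPM on D11, 74.1 and 32.9 CPM on D13 and 25.4 and 21.99 CPM on D15. Its pools of D11 lay above all pools of D0 to D9, and pool B of D13 did not. PLOD2 stood at 23.7 and 24.0 CPM on D0, 17.5 and 14.8 on D3, 24.1 and 20.2 on D5, 19.6 and 24.9 on D7, 29.8 and 31.5 CPM on D9, 29.2 and 47.4 CPM on D11, 46.1 and 33.3 CPM on D13 and 21.6 and 23.7 CPM on D15. For PLOD2 all 6 pools of D9, D11 and D13 lay above all 8 pools of D0, D3, D5 and D7. LOXL3 ranged from 14.6 CPM on D0 to 2.41 on D15, PLOD1 from 92.1 on D5 to 21.8 on D15, and LOXL4 from 97.7 on D5 to 3.44 on D15. The pools of a day differed most for LOXL4, at 97.7 and 25.2 CPM on D5 and 10.3 and 67.8 on D7, and COL1A1 parted in the same direction there, at 1498 and 669 CPM on D5 and 571 and 1575 on D7. In such sums over all cells, fewer cells of a type and less RNA per cell cannot be told apart.

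**Figure D1:**
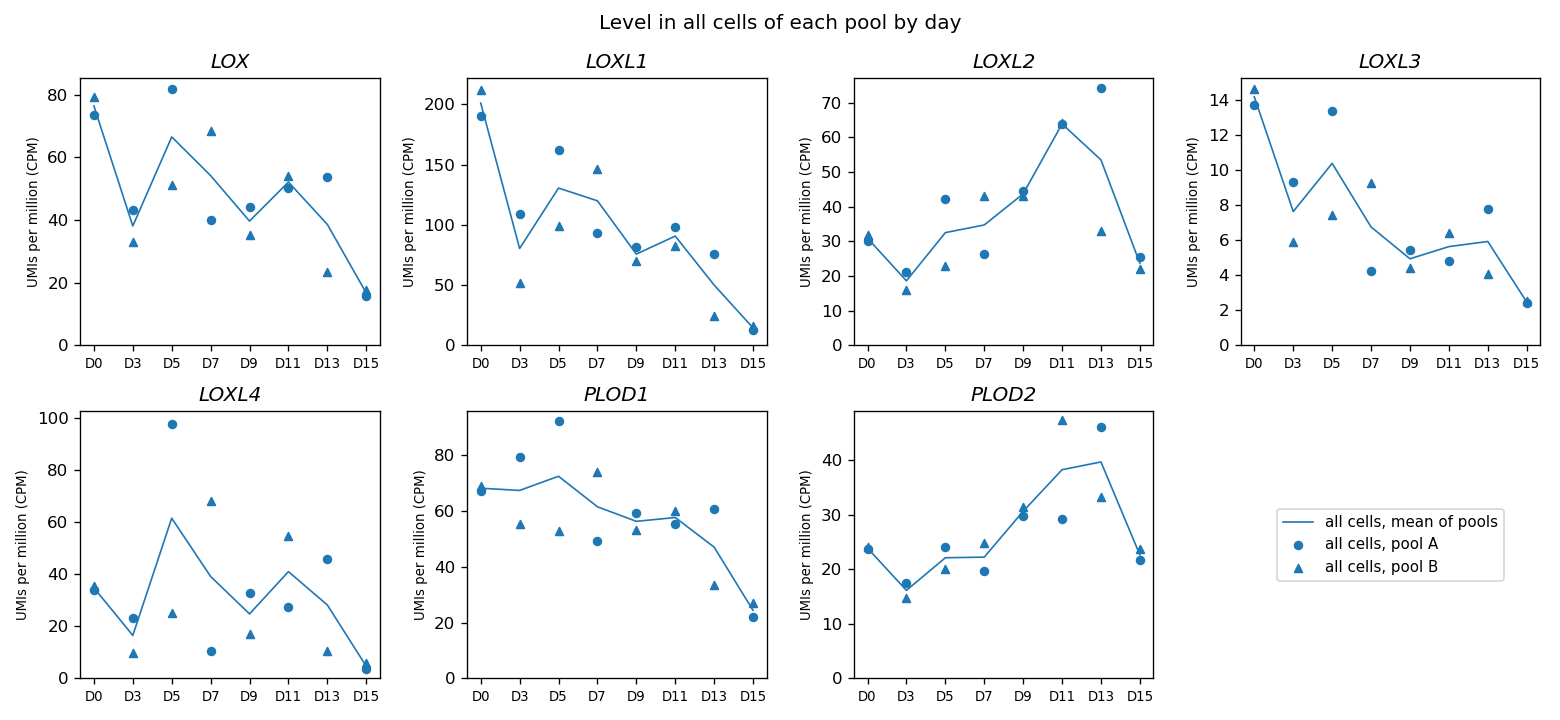
CPM of each of the 7 genes over all cells of a pool (vertical axis, from 0) by day (horizontal axis); circles are pool A, triangles pool B and the line joins the means of both pools. LOXL1 falls from 191 and 212 CPM on D0 to 12.8 and 16.2 CPM on D15, whereas LOXL2 and PLOD2 peak on D11 and D13.

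To ask when levels changed, each day up to D11 was tested against the day sampled before it, and D15 against D11, by edgeR (quasi-likelihood) in a fit of all 16 pools. D13 was not tested against its neighbours. A gene was called at a Benjamini-Hochberg adjusted p under 0.01 with a log2 fold change larger than 0.25 in size. From D0 to D3, the start of transfection and of the reprogramming medium, 0 of the 7 genes were called, against 25.6% of all genes tested. All 7 fold changes were negative there, from -0.06 for PLOD1 to -1.38 for LOXL1, 5 had an unadjusted p under 0.05, and DESeq2 called 2, LOX and LOXL1, where it called 34.1% of all genes. From D3 to D5 0 were called (3.56% of all genes; 2 with an unadjusted p under 0.05 and 0 by DESeq2). From D5 to D7, D7 to D9 and D9 to D11 0 were called as well (2.06%, 7.37% and 4.09% of all genes), with 0 at an unadjusted p under 0.05 and 0 by DESeq2 in each. These shares of all genes rested on single pools, and were as low as 0.219% from D5 to D7 (without pool A of D5), 2.42% from D7 to D9 (without pool B of D7) and 0.524% from D9 to D11 (without pool A of D9). Without pool A of D11 and pool B of D13 the count from D9 to D11 was also 0.

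From D11 to D15, LOX and LOXL1 fell, 2 of 7 genes, against 6.18% of all genes lower on D15. The log2 fold change was -1.56 ± 0.33 (SE, adjusted p = 0.0063) for LOX and -2.57 ± 0.44 (adjusted p = 0.0022) for LOXL1. The other 5 had negative values between -0.66 for PLOD2 and -3.02 for LOXL4, and all 7 had an unadjusted p under 0.05. The count rested on the test, cells and pools used. DESeq2 called 5, and 6 were called with no gene filter and with only the 4 pools compared. In either direction these called 16.2%, 8.25% and 17.5% of all genes, against 8.72% in the main fit. When cells needed 2000 genes and no more than 5% mitochondrial UMIs, only 168 of 571 and 357 of 2108 cells of D15 remained, LOX stood at 42.8 and 37.2 CPM in them, the COL1A1-high share of cells went from 7.01% to 14.3% and from 2.99% to 6.16%, and 0 of the 7 genes were called (LOX -0.32, adjusted p = 0.51; LOXL1 -1.58, adjusted p = 0.017). Without pool A of D11 and pool B of D13 only LOXL1 was called, and 0 genes were called without pool A of D11, pool A of D15 or pool B of D15, and 1 without pool B of D11, while the log2 fold change stayed between -1.64 and -1.48 for LOX and between -2.76 and -2.38 for LOXL1. The median mitochondrial share was 5.69% and 6.22% in the D15 pools and 4.12% and 3.45% in those of D11, and its part in this difference was not tested.

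Against the untreated fibroblasts, D15 cells held less LOX, LOXL1, LOXL3 and PLOD1, 4 of 7 genes, where 26.7% of all genes were called lower. LOXL1 dropped from 201 ± 14.8 (SD, n = 2) to 14.5 ± 2.46 CPM, a log2 fold change of -3.85 ± 0.47 (SE, adjusted p = 1.3e-05). LOX went from 76.4 ± 4.10 to 16.7 ± 1.195 CPM (-2.25 ± 0.33, adjusted p = 7e-05), LOXL3 from 14.2 ± 0.625 to 2.48 ± 0.0953 CPM (-2.58 ± 0.39, adjusted p = 9.1e-05) and PLOD1 from 68.1 ± 1.26 to 24.4 ± 3.60 CPM (-1.54 ± 0.29, adjusted p = 0.00042). LOXL4, at 34.7 ± 1.09 and 4.66 ± 1.73 CPM, missed the threshold (-2.95 ± 0.91, adjusted p = 0.012), and was called by DESeq2 (-2.92, adjusted p = 0.0026) and with no gene filter (adjusted p = 0.00013). LOXL2 and PLOD2 were not called either. The 95% interval of the log2 fold change ran from -1.15 to 0.25 for LOXL2 and from -0.59 to 0.31 for PLOD2, so a fall as large as that of LOX lay outside both. Leaving out any of the 4 pools kept the count at 4, and with only these 4 pools in the fit 6 genes were called, LOXL2 (-0.46) and LOXL4 added, in a fit that called 74.0% of all genes. The sizes depended on the cells used. With the stricter cells the same count of 4 was called, but the log2 fold change was -1.04 for LOX (adjusted p = 0.0055) and -2.86 for LOXL1 (adjusted p = 1.7e-05), and the values of LOXL2 (0.24, adjusted p = 0.47) and PLOD2 (0.61, adjusted p = 0.022) turned positive without being called. The median mitochondrial share was 2.97% and 3.33% on D0, below that of D15, and its part was not tested.

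COL1A1-high cells were compared with POU5F1-high cells of the same pool from D9 to D15. The classes did not cover all cells. In pool B of D13 they held 2.654% and 6.734% of cells. Cells outside both classes that also lacked 200 CPM of both genes made up 12.96% (pool A of D15) to 44.46% (pool B of D13). The levels of the enzyme genes in those cells are not given, so their part was not tested. All 7 genes were higher in COL1A1-high cells, against 30.7% of all genes. The cells were sorted on a collagen gene, and the enzymes were chosen with earlier results of these data known. The part of the sorting and of this choice in the count of 7 was not tested. For each gene except LOXL3, whose ranges overlapped, every COL1A1-high value lay above every POU5F1-high value. LOX had a lowest, median and highest level of 88.5, 125 and 198 CPM in COL1A1-high cells and 2.59, 4.90 and 7.68 CPM in POU5F1-high cells (n = 7 pools each). LOXL4 had 23.2, 75.3 and 185 CPM against 0.481, 1.74 and 3.51 CPM. These were the genes with the widest gaps, a log2 difference of 4.89 ± 0.28 (SE, adjusted p = 1.4e-06) for LOX and 5.52 ± 0.42 (adjusted p = 4e-06) for LOXL4. LOXL1, the elastic fibre enzyme, was at 87.3, 225 and 266 against 4.92, 9.21 and 15.7 CPM, a difference of 4.23 ± 0.25 (adjusted p = 1.4e-06).

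LOXL2 was at 100.2, 118 and 220 CPM in COL1A1-high and 9.51, 17.2 and 19.9 CPM in POU5F1-high cells, a log2 difference of 3.15 ± 0.19 (adjusted p = 1.8e-06). PLOD1 was at 80.5, 99.5 and 157 against 15.4, 23.9 and 38.9 CPM (2.06 ± 0.17, adjusted p = 6.7e-06), and PLOD2 at 42.4, 93.6 and 128 against 13.3, 18.8 and 21.4 CPM (2.16 ± 0.24, adjusted p = 2.8e-05). LOXL3 was at 4.93, 11.4 and 14.9 against 2.22, 3.16 and 6.58 CPM, and in each of the 7 pools its COL1A1-high cells were the higher (1.52 ± 0.21, adjusted p = 0.00014). Some of these LOXL3 values rested on few UMIs. COL1A1-high cells held 11 and 7 in pools A and B of D15 and 20 in pool B of D13. PLOD3 differed by 1.23 ± 0.12 (adjusted p = 1.5e-05). The count stayed at 7 of 7 with all other class limits, with classes set by a 4-fold ratio of the defining genes, without pool B of D13, and with each pool left out.

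**Figure D2:**
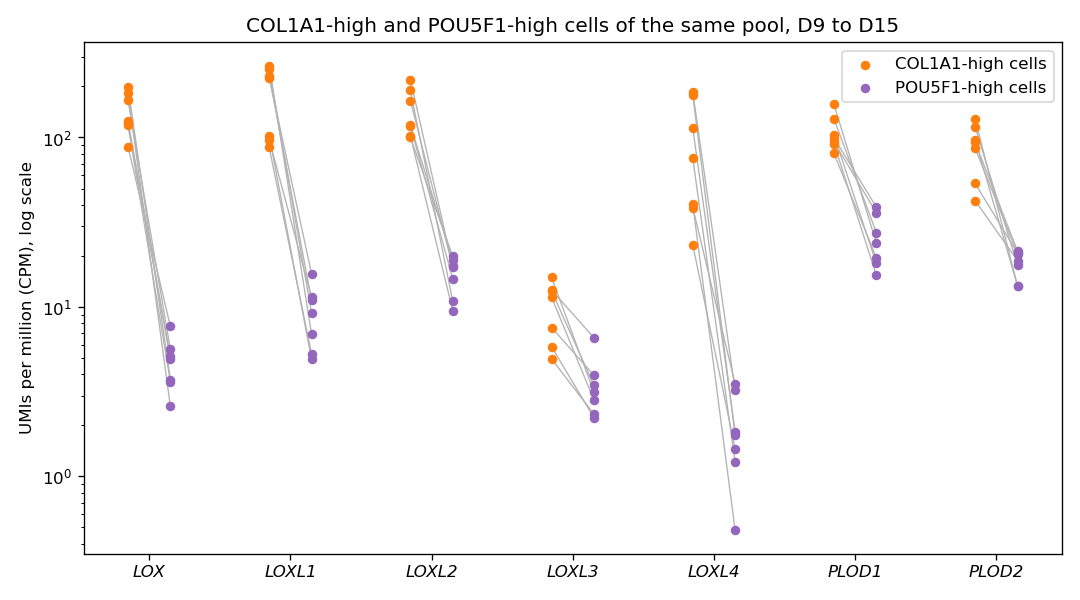
CPM of the 7 genes on a log axis in COL1A1-high (orange) and POU5F1-high (purple) cells; each grey line joins both classes of 1 of the 7 pools of D9 to D15. The gap is widest for LOXL4, from a median of 75.3 to 1.74 CPM, and narrowest for LOXL3, from 11.4 to 3.16 CPM.

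The genes differed in how much of the COL1A1-high level was found in POU5F1-high cells. For LOXL4, LOX and LOXL1 it was 3.22% ± 3.17, 3.80% ± 2.38 and 5.79% ± 3.00 (SD, n = 7 pools), in the range of the collagen genes COL1A2 (5.45% ± 2.85) and COL3A1 (2.79% ± 2.23), while DCN, a fibroblast proteoglycan, stood at 1.32% ± 0.800. For LOXL2 it was 11.7% ± 4.87, for PLOD2 24.2% ± 12.9, for PLOD1 24.6% ± 10.1 and for LOXL3 37.7% ± 13.3. In 7 of 7 pools each of these 4 had a higher percentage than COL1A2, COL3A1 and DCN. The cells were sorted on COL1A1, so genes that vary with it may stand low through the sorting itself. These comparisons with COL1A2, COL3A1 and DCN are therefore descriptions. LOX exceeded COL1A2 in 1, COL3A1 in 6 and DCN in 7 of 7 pools, LOXL1 in 4, 7 and 7, and LOXL4 in 2, 3 and 7. Pool B of D13 had the highest percentage for LOX, LOXL1 and LOXL4, and without it they stood at 2.98% ± 1.11, 4.797% ± 1.59 and 2.24% ± 2.00 (n = 6 pools). The part of free RNA in these percentages was not tested. The share of cells with a UMI showed the same split. With each cell thinned to 5000 UMIs, 33.5% ± 10.4 of COL1A1-high and 2.33% ± 1.19 of POU5F1-high cells held LOX, and 29.9% ± 9.41 and 9.21% ± 2.07 held PLOD2. Without thinning these shares were 75.0% and 19.8% for LOX and 82.5% and 54.3% for PLOD2. Median depth was 22641 to 53747 UMIs in COL1A1-high and 31740 to 73136 UMIs in POU5F1-high cells, and no cell type that should lack these genes was at hand to give a background share.

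Whether the class difference changed between D9 and D15 was tested with an interaction of class and day. D11 entered with 1 pool, pool B, so the spread came from the other days. With edgeR, 0 of 7 genes were called, against 0.782% of all genes, and 4 had an unadjusted p under 0.05. The nearest was PLOD2, whose log2 difference in the order of the days was 1.27, 2.13, 2.35 and 2.93 (adjusted p = 0.032 for any difference among the days). LOXL3 had 1.94, 2.24, 0.87 and 1.13 (adjusted p = 0.045), and LOX 4.62, 4.89, 4.73 and 5.43 (adjusted p = 0.76). The 4-fold classes called 2.77% of all genes. The count depended on single pools. It was 3 without pool A of D13 and 4 without pool B of D13, where 1539 and 2045 of all genes were called in place of 100, and the 4-fold classes gave 2.

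Within the COL1A1-high class alone, cells of D9 to D15 were compared with those of D3 to D7. LOXL2, PLOD2 and LOX rose, 3 of 7 genes, where 12.2% of all genes were called higher. With class limits of 100 and 50 CPM, 10.7% of all genes were called in either direction, in place of 20.9%. LOXL2 was at 27.8 and 19.0 CPM on D3, 46.4 and 27.2 on D5, 30.7 and 49.1 on D7, 100.2 and 118 CPM on D9, 137 and 165 CPM on D11, 220 and 117 CPM on D13 and 189.6 and 102 CPM on D15, with 30.0 and 32.0 CPM on D0. PLOD2 was at 17.7 and 15.0 CPM on D3, 24.9 and 20.3 on D5, 20.7 and 25.7 on D7, 42.4 and 53.6 CPM on D9, 64.6 and 93.6 CPM on D11, 115.5 and 86.2 CPM on D13 and 96.9 and 128 CPM on D15, with 23.7 and 24.0 CPM on D0. For both genes all 8 later pools lay above all 6 earlier ones and above D0. The log2 fold change was 2.09 ± 0.20 (SE, adjusted p = 2.3e-06) for LOXL2 and 1.94 ± 0.13 (adjusted p = 8.5e-08) for PLOD2.

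LOX was at 48.5 and 35.9 CPM on D3, 88.1 and 60.5 on D5, 47.2 and 78.4 on D7, 125 and 121 CPM on D9, 98.8 and 166.5 CPM on D11, 198 and 88.5 CPM on D13 and 182 and 118 CPM on D15, with 73.8 and 79.3 CPM on D0. Its later pools lay above the earlier ones by a narrow margin, 88.5 CPM at the lowest against 88.1 CPM at the highest, and its log2 fold change was 1.198 ± 0.197 (adjusted p = 0.00036). LOXL1, LOXL3, LOXL4 and PLOD1 were not called, except LOXL4 with no gene filter (0.782, adjusted p = 3.3e-06, where 17.3% of all genes were called) and PLOD1 with 4-fold classes (0.551, adjusted p = 0.0094). Their 95% intervals ran from -0.11 to 0.83 for LOXL1, from -0.56 to 0.43 for LOXL3, from -0.12 to 1.90 for LOXL4 and from 0.12 to 0.84 for PLOD1. PLOD1 had an adjusted p of 0.042, of 0.0094 also without pool B of D13, and of 0.0082 without that pool and pool A of D11, and it made 4 genes called in both. LOXL1 stood at 103 and 87.3 CPM on D15 against 192 and 213 CPM on D0, a log2 fold change of -1.15 ± 0.42 that was not called (edgeR, adjusted p = 0.049). In the same test of D15 against D0, 2 of 7 genes were called, where 18.3% of all genes were called in either direction. These were LOXL2 (2.18, adjusted p = 0.00048) and PLOD2 (2.17, adjusted p = 1.5e-05). LOX was not called against D0 (0.92, adjusted p = 0.069).

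**Figure D3:**
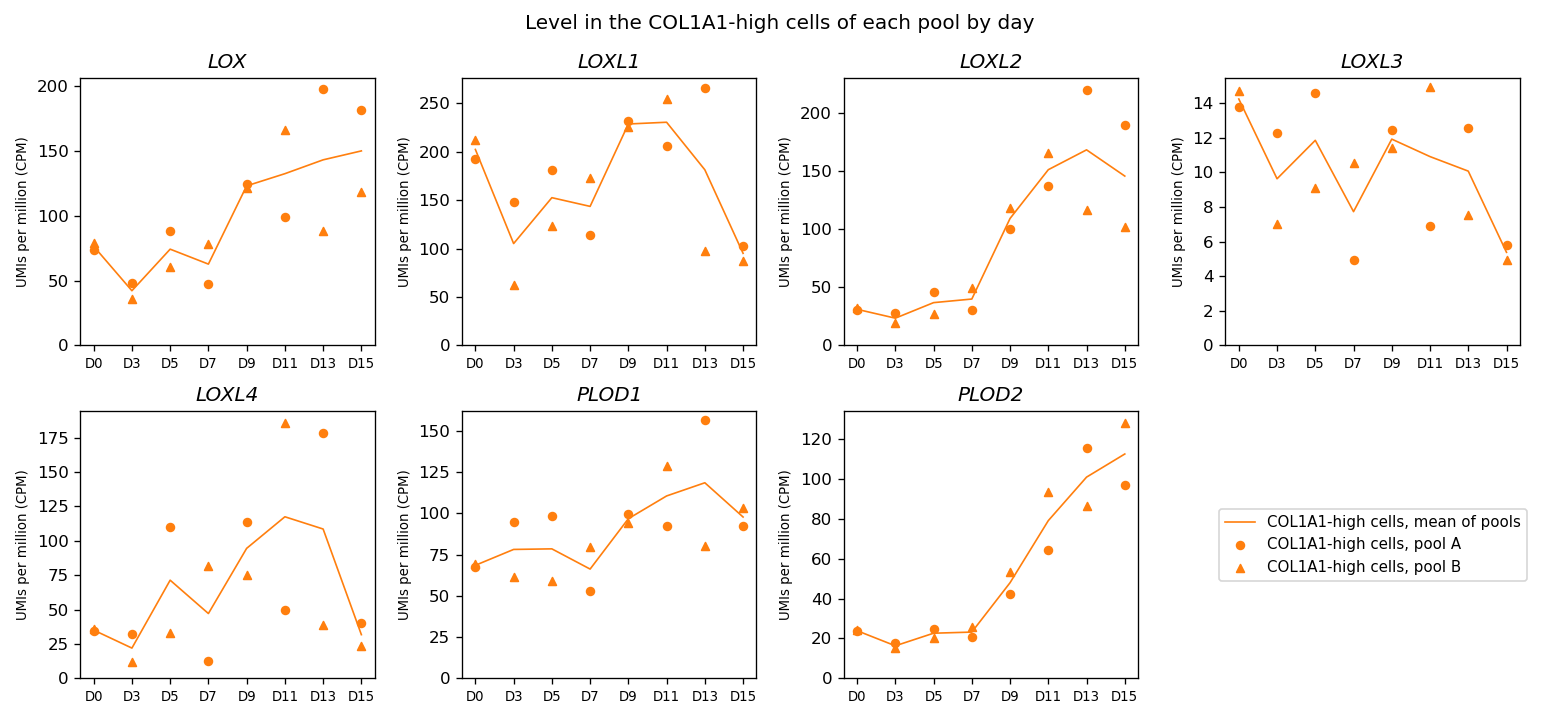
CPM of each of the 7 genes in the COL1A1-high cells of a pool (vertical axis, from 0) by day; circles are pool A, triangles pool B and the line joins the means. LOXL2 and PLOD2 lie above all earlier pools from D9 on, while LOXL1 ends at 103 and 87.3 CPM on D15.

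The COL1A1-high class was not the same population throughout. It held 97.3% and 97.4% of cells on D0, 72.0% to 90.8% on D3 to D7, 33.7% and 22.6% on D9, 2.70% and 33.5% on D11, 30.5% and 2.65% on D13 and 7.01% and 2.99% on D15, in pools A and B. The pools of D11 and of D13 thus differed widely. Its own COL1A1 level, which the class is cut on, went from 654 ± 45.5 CPM on D3 to 3353 ± 1294 CPM on D15 (SD, n = 2), and POU5F1 from 0.997 ± 0.485 to 59.6 ± 0.394 CPM. The part of these in the rise of LOXL2, PLOD2 and LOX was not tested.

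The make-up of each family was followed as the share of a gene in the summed UMIs of the 5 lysyl oxidases, or of PLOD1, PLOD2 and PLOD3. UMIs count molecules by their 3' ends, so they are not divided by length, and genes may be captured with unequal efficiency, so changes in a share are clearer than its size. LOXL1 made up 55.8% and 56.8% of lysyl oxidase UMIs in the untreated fibroblasts and LOXL2 8.77% and 8.53%. From D3 to D7 LOXL1 held 47.3% ± 5.22 (SD, n = 6 pools) and from D9 to D15 31.8% ± 7.68 (n = 8 pools), a difference of -15.5 percentage points (two-sided exact permutation test, p = 0.0013, adjusted p = 0.0027). LOXL2 went from 12.3% ± 1.92 to 29.7% ± 6.93, a difference of 17.4 points (exact p = 0.00067, the smallest possible over pools, adjusted p = 0.0018). The test shuffled single pools, but the 2 pools of a day share that day. With whole days as units, there are too few days for any share tested to reach the threshold of 0.05. Every later pool lay above every earlier one for LOXL2, and on D15 its share of 42.4% and 34.3% passed that of LOXL1, at 21.3% and 25.3%.

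Among the hydroxylases PLOD2 went from 15.8% ± 2.79 to 33.6% ± 6.44, a difference of 17.9 points (exact p = 0.00067, adjusted p = 0.0018), and its later pools lay above all earlier ones. PLOD3 moved the other way, from 33.1% ± 1.94 to 21.1% ± 4.18 (exact p = 0.00067, adjusted p = 0.0018), and PLOD1 from 51.1% ± 3.26 to 45.3% ± 3.91 (exact p = 0.014, adjusted p = 0.022). LOX (23.0% and 22.8%), LOXL3 (3.63% and 3.12%) and LOXL4 (13.8% and 12.7%) did not pass (exact adjusted p = 0.87, 0.44 and 0.83). The 8 tests are not independent, since shares of a family sum to a whole. Without pool A of D11 and pool B of D13 the differences were 17.1 points for LOXL2, 17.5 for PLOD2 and -15.9 for LOXL1. In COL1A1-high cells LOXL2 had 12.1% ± 1.88 on D3 to D7 and 26.6% ± 6.63 on D9 to D15, and PLOD2 15.0% ± 2.86 and 37.1% ± 9.87. In POU5F1-high cells of D9 to D15 LOXL2 made up 44.9% ± 5.13 and PLOD2 31.5% ± 5.36.

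**Figure D4:**
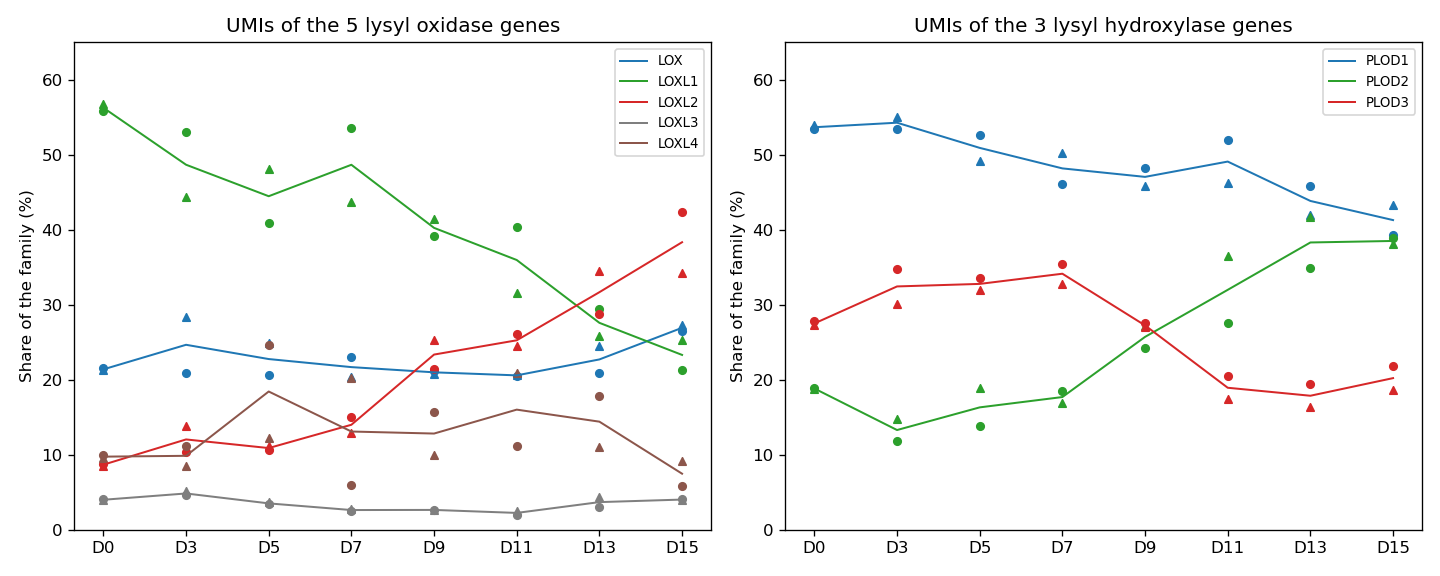
Share of each gene in the UMIs of the 5 lysyl oxidase genes (left) and of PLOD1, PLOD2 and PLOD3 (right), in percent of the family, by day; circles are pool A, triangles pool B and lines join the means. LOXL2 rises from 8.77% and 8.53% on D0 to 42.4% and 34.3% on D15 while LOXL1 falls, and PLOD2 passes PLOD3.

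The substrates and partners of the enzymes were described through lists of genes. The classes were cut on COL1A1, so genes that vary with it may differ between them through the sorting itself. The lists were also chosen with earlier results of these data known. Counts of list genes between the classes are therefore descriptions. Between the classes 30.7% of all genes were higher and 31.1% lower in COL1A1-high cells, and shares of a list near these are no result about it, as with the copper, processing and hypoxia-induced genes. In COL1A1-high against POU5F1-high cells, 13 of 13 genes for prolyl hydroxylation and collagen chaperones were higher (median log2 difference 1.91, against -0.02 over all genes), led by the prolyl 4-hydroxylase subunits P4HA3 (4.42 ± 0.41) and P4HA2 (3.78 ± 0.22). All 7 fibrillar collagen genes were higher (median 4.22), with COL3A1 at 5.45 and COL11A1 at 4.54. Of 18 elastic fibre genes 17 were higher (median 3.70), with fibrillin-1 (FBN1) at 5.07 ± 0.41 and elastin (ELN) at 4.88 ± 0.47. Procollagen processing had 3 of 7 tested genes higher, including the propeptidases ADAMTS2 (3.40) and BMP1 (3.22), and COLGALT1, which adds galactose to hydroxylysine, was higher by 1.43. The copper genes had 2 of 5 higher, the copper pump ATP7A (2.02) and the copper chaperone ATOX1 (0.79).

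Of the genes induced by TGF-beta 7 of 9 were higher and SKIL was lower (-1.25), with smooth muscle actin ACTA2 at 5.53 ± 0.46 and TGFBI at 5.14 ± 0.36. Of 15 hypoxia-induced genes, 6 were higher and 3 lower (median -0.003), with NDRG1 at 2.53 and the hormone ADM at 2.51. Between D15 and D0 over all cells, where 26.7% of all genes were lower and 26.8% higher on D15, 13 of 18 elastic fibre genes were lower, with EFEMP2 at -3.62 and FBLN5 at -3.56, and elastin (ELN) was higher (2.75). Shares of the other lists lay nearer to those of all genes. With the stricter cells 10 elastic fibre genes were lower and 2 higher. The fibrillar collagens had 2 of 7 lower, COL3A1 (-3.04) and COL1A2 (-2.74), and COL2A1 higher, at 0 and 0.00679 CPM on D0 and between 5.70 and 7.82 CPM on D15. Of 13 prolyl hydroxylation and chaperone genes 5 were lower, among them P3H3 (-2.05), and P3H2 was higher (2.30). Among the processing genes 3 of 7 were lower, PCOLCE (-2.87) included, and 2 higher, TLL2 included, at 0.0360 and 0.0679 CPM on D0 and 1.51 and 1.62 CPM on D15. With the stricter cells 1 processing gene was lower and 1 higher, and 3 prolyl hydroxylation and chaperone genes were lower. PLOD3 fell by 1.62 on the log2 scale, ATP7A by 1.79 and THBS1 by 2.82. SLC31A1, the copper importer, rose by 1.23 and SKIL by 3.80. SKIL, CTGF (1.76) and TAGLN (1.30) were the 3 of 9 TGF-beta induced genes that were higher, THBS1 the 1 that was lower. Only 1 TGF-beta gene was higher without pool A or pool B of D0 or pool B of D15, and ATP7A was not called with the stricter cells or without any 1 of the 4 pools. Leaving out a pool also took the 5 lower prolyl hydroxylation and chaperone genes to 3 (without pool A of D0 or either pool of D15), and the 2 higher processing genes to 1 (each pool). Of the hypoxia-induced genes 3 were higher and 5 lower, with EGLN3 between 0.0136 and 0.0360 CPM on D0 and between 19.6 and 20.4 CPM on D15 and NDRG1 at -2.56, with the stricter cells 6 were higher and 3 lower, and 3 were lower without pool B of D0 or either pool of D15.

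Within COL1A1-high cells, 9 of 9 genes induced by TGF-beta were higher on D9 to D15 than on D3 to D7 (median log2 fold change 2.99, against -0.03 over all genes, of which 12.2% were called higher), from SKIL at 1.62 to TAGLN at 3.88. The same held without pool A of D11 and pool B of D13. Of 18 elastic fibre genes 8 were higher, with ELN at 4.93 ± 0.35 and LTBP2 at 3.45 ± 0.20, and 5 of 7 fibrillar collagen genes, with COL2A1 at 3.70 and COL5A1 at 2.25. Without the pools that stood apart these counts were 9 and 5. Of 13 prolyl hydroxylation and chaperone genes 5 were higher, among them P3H2 (1.96), and 9 without the pools that stood apart. Of 15 hypoxia-induced genes 4 were higher, EGLN3 (4.99), PFKFB4 (0.79), KDM3A (0.76) and BNIP3L (0.47), against a median of 0.185, and 6 without the pools that stood apart. The hypoxia count was 1 with no gene filter, with limits of 100 and 50 CPM for the classes, and without pool A of D7, either pool of D9, pool B of D11 or pool A of D15, and 2 without either pool of D0 or D5 or pool B of D15. ADAMTS2 (0.73) and BMP1 (0.90) were the 2 of 7 processing genes that were higher, and 0 were with those lower limits or without pool B of D5 or pool A of D15. Leaving out pool A of D7, either pool of D9 or either pool of D11 left 1. COLGALT1 (0.22), PLOD3 (-0.40) and SLC31A1 (0.38, adjusted p = 0.017) were not called. COL1A2, CTGF, LTBP2, TAGLN, COL5A1, PFKFB4, KDM3A, BNIP3L and LDHA were named after their values were seen.

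**Figure D5:**
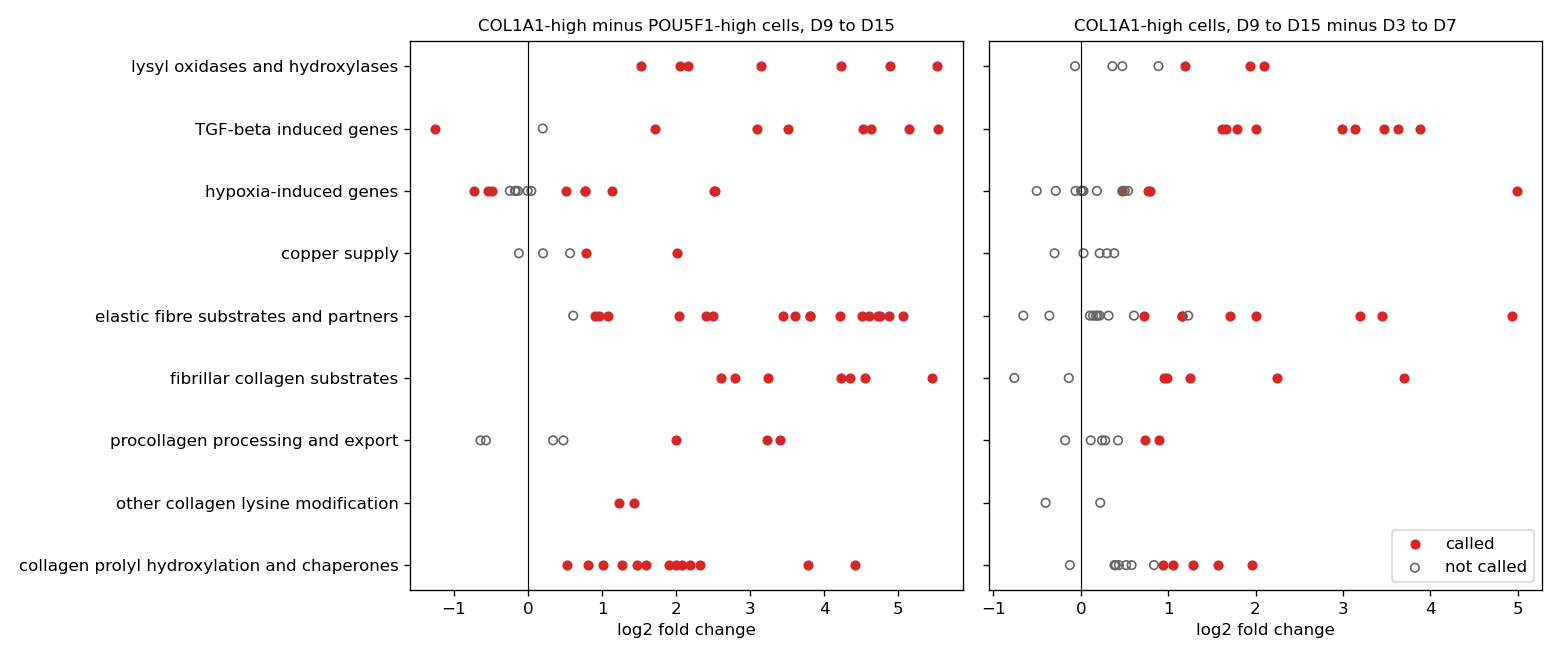
Log2 fold change of every tested gene of the 8 lists and of the 7 enzymes (rows) between COL1A1-high and POU5F1-high cells (left) and within COL1A1-high cells between D9 to D15 and D3 to D7 (right); filled red points passed the call and open points did not. All 9 TGF-beta induced genes lie at 1.62 or above on the right, while the 15 hypoxia-induced genes run from -0.50 for LDHA to 4.99 for EGLN3.

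Over the 16 pools, the genes whose log2(CPM + 1) most resembled each enzyme were found among 7052 genes of at least 10 CPM on average, as a description with n = 16 pools that share their days. LOX was nearest to CTSB (Pearson's r = 0.98), CERCAM (0.98) and SNAI2 (0.97), and LOXL1 to PARVA (0.99), CTSB (0.99) and PRSS23 (0.98). LOXL2 was nearest to TGFBI (0.96), AMOTL2 (0.92) and TNFAIP1 (0.91), and PLOD2 also to TGFBI (0.93), then RNF41 (0.93) and UBE2W (0.91). LOXL3 was nearest to TWSG1 (0.97), FBLN2 (0.97) and SCP2 (0.97), LOXL4 to EMILIN1 (0.94), LOX (0.91) and MMP2 (0.91), and PLOD1 to SEC61A1 (0.97), PRNP (0.97) and COL6A2 (0.95). Among the enzymes themselves, LOXL2 and PLOD2 had r = 0.88 with each other, and LOX and LOXL1 0.97, whereas PLOD2 and LOXL1 had -0.01.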

How the data were processed

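The single-cell RNA libraries of the microfluidic time course were used, 22 in all, which make up 16 pools because 6 pools were captured as 2 aliquots each, and aliquots of a pool were added together. The deposited values are raw UMI counts per gene and cell barcode, which the authors made with Cell Ranger 2.2 (per the submitters' processing notes) on GRCh38, before any filter or normalization. The labels name pools A and B, and the study's methods state that each joined cells of 4 independent chips. All are of 1 cell line, so p-values measure the spread between pools of chips. Pools of a day differed by more than sampling noise (chi-square per degree of freedom of at least 12.4). Doublets were not called, and leaving out the 10% of cells with the most UMIs in each pool was an alternative.

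UMIs were summed per pool, or per pool and class. Sums were tested with edgeR 4.0.16 in R 4.3.3 (TMM, quasi-likelihood test, Benjamini-Hochberg adjustment over all genes tested, with calls at 0.01 and a log2 size of 0.25). Days were tested in a single fit of all 16 pools, and classes with the pool as a block, in pools with at least 20 cells of each class. In simulated counts for D15 against D0, 8, 46, 50 and 50 of 50 genes were recovered for folds of 2, 4, 8 and 16. There 1 unchanged gene was called in error, with 12794 genes in all, changed ones included. For the classes 39, 50, 49 and 50 of 50 were recovered, also with 1 called in error. These counts held only 50 changed genes per fold. In the data 53.4% (D15 against D0) and 61.8% (classes) of all genes were called. Recovery with so many changed genes was not tested. Family shares were compared by an exact permutation test over pools (scipy 1.17.1), adjusted over 8 tests, with an adjusted p below 0.05 as the threshold. It did not keep the pools of a day together. Promoter sequences came from RefSeq (GRCh38.p14), in which 6 of the 7 genes were matched, LOXL2 not, and positions from GENCODE v44 by Ensembl identifier.

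Genes named are the 7 enzymes, PLOD3, the 2 largest changes per list among the genes called between classes and between D15 and D0, and the 3 most similar genes per enzyme (log2(CPM + 1), a pseudocount of 1). COL1A2, COL3A1 and DCN were also named for comparison with the enzymes in the classes. The enzymes and the lists were chosen with earlier results of these data known. Alternatives were DESeq2 1.42.0, its size factors in edgeR, no gene filter, the pool letter as a block (for the classes no block), only the 4 pools compared, stricter cells (2000 genes, 5% mitochondrial UMIs), 2500 cells per day, other class limits, D11 to D15 only, thinning to 5000 or 10000 UMIs and leaving out each pool. The 4-fold classes (10 CPM added to both genes) and the exclusion of pool A of D11 and pool B of D13 were added after the data were seen.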

Additional observations from a re-analysis of the deposited data

Results flagged for a closer look

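The LOXL3 level in POU5F1-high cells of pool A of D13 was 6.58 CPM, above the next highest of the 7 pools at 3.95 CPM and the lowest at 2.22 CPM. The gap to the next pool took up 0.603 of the whole range. Of 14 such groups of pools examined, this was the only 1 flagged. Chance flags about 1 in 20 groups, so 1 flag among 14 is not unusual.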

How the results depend on the processing

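Counts of enzymes called stayed within 1.5 times of the reported count in most settings, and at 7 of 7 between the classes in all of them. From D0 to D3 the reported 0 became 1 with stricter cells (2000 genes, 5% mitochondrial UMIs) and 2 with DESeq2. From D11 to D15 the reported 2 became 6 with no gene filter, 0 with stricter cells, 6 with only the 4 pools compared, 5 with DESeq2, 1 without pool A of D11 and pool B of D13, and 0 to 1 with a pool left out. For the class difference by day the reported 0 became 4 with no gene filter, 2 with 4-fold classes and 0 to 4 with a pool left out. Among the family shares, the LOXL3 difference of -1.004 points passed with stricter cells (exact adjusted p = 0.028), and the PLOD1 difference was between -6.82 (PLOD1, without pool A of D7) and -4.94 points (without pool A of D15) with a pool left out, missing the threshold without pool B of D3 (-5.02, exact adjusted p = 0.052). The causes of these changes were not tested beyond the fewer cells and pools used. Pool letters did not pair the pools: over 28 pairs of days the differences between pool A and pool B had a median correlation of 0 (from -0.45 to 0.82), and with the letter as a replicate block the counts were 0 from D0 to D11, 2 from D11 to D15, 4 from D0 to D15 and 3 within COL1A1-high cells. Without the block of pools the class count was 7. Over all genes, calls from D0 to D3 went from 3280 to 0 with only the 4 pools compared (5431 at an unadjusted p under 0.05). From D11 to D15 they went from 1115 to 227 with stricter cells, 2417 with no gene filter, 2245 with only the 4 pools compared and 2075 with DESeq2, and to 174 without pool A of D15, 360 without pool B of D15, 329 without pool A of D11, 431 without pool B of D11 and 637 without pool A of D11 and pool B of D13. With a pool left out, calls went from 3280 to 1444 at the lowest from D0 to D3 (without pool B of D0), from 455 to 229 from D3 to D5 (without pool B of D3), from 263 to 28 from D5 to D7 (without pool A of D5), from 943 to 309 from D7 to D9 (without pool B of D7) and from 523 to 67 from D9 to D11 (without pool A of D9). For the class difference by day they went from 100 to between 0 and 2045 with a pool left out and 2374 with no gene filter, and within COL1A1-high cells calls in both directions reached 4741 with no gene filter. With class limits of 100 and 50 CPM, calls within COL1A1-high cells fell from 2674 to 1374. Shares of cells with a UMI rest on depth, and 107 of 112 moved with other thinning.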

Other observations

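The cells that held both COL1A1 and POU5F1 at 200 CPM or more are given by their values. In pool A of D11 they held 37.7 CPM of LOX, 51.5 CPM of LOXL2 and 24.3 CPM of PLOD2, and in pool B of D13 26.7, 37.4 and 35.6 CPM. With the 4-fold classes, which can take in cells that hold both genes and kept 890 COL1A1-high and 951 POU5F1-high cells of pool A of D11, LOX stood there at 156 and 12.3 CPM, LOXL2 at 164 and 20.8 CPM and PLOD2 at 58.3 and 11.9 CPM. These values were not tested.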
